A study of Mus musculus with 86 samples.

Results

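The response of the heart to a sustained isoproterenol infusion was followed in B2KO mice, in 9 arrays of treated and 10 arrays of untreated B2KO hearts, which are 19 of the 86 arrays of the series. The arrays were chosen by their titles alone, and every probe set with a single gene symbol was read. Of 11 deposited arrays of treated B2KO hearts, replicate 10 was left out as a failed hybridisation, with a median correlation to all other arrays of 0.573. Replicate 9 was left out because it repeats replicate 4 (r = 0.999999763, where the next highest correlation between any pair of arrays was 0.982).

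Isoproterenol is a synthetic catecholamine that activates beta-adrenergic receptors, which couple through the stimulatory G protein to adenylyl cyclase, cyclic AMP and protein kinase A. In cardiomyocytes this pathway raises the force and rate of contraction through phosphorylation of calcium-handling and sarcomere proteins. Prolonged infusion in rodents is a common model of catecholamine stress, known for hypertrophy, interstitial fibrosis, macrophage accumulation and a move away from fatty acid oxidation.

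The series measured heart RNA from 4 mouse lines, with and without the infusion, on Affymetrix expression arrays. Treated B2KO mice received isoproterenol for 14 days at 120 µg/g/day, and untreated B2KO mice received no infusion. Each of the other lines, wild-type FVB, C57BL/6 and B6129SF2/J, had a treated group under the same protocol and its own untreated group. Per the series' design text, B2KO and FVB mice developed a systolic dysfunction under the infusion and C57BL/6 mice a diastolic one, and the comparison within B2KO asks which transcripts changed in 1 of the lines with a systolic phenotype. The labels do not expand the name B2KO and give neither age, sex, cell type nor driver of a deletion, so the limits of the line as a model cannot be read from them. The genotype was not checked on the arrays. Assignment to treatment was random per the labels, and each array is taken as 1 mouse. For some of the lines the labels speak of fewer mice than there are arrays deposited, and this was not resolved. Nothing in the labels shows when or where the samples of a group were processed.

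Several B2KO arrays stood apart before any comparison. Untreated replicate 8 had a Gapdh signal at the 3' end of the transcript 7.31 log2 units above that at the 5' end, and untreated replicate 1 had 1.77, where the other 17 arrays lay between -0.30 and 0.18. Such a gap is a sign of shortened RNA. Untreated replicate 1 was also the only female by Xist (7.53, against -2.37 to -0.24 in the other 18 arrays). Untreated replicate 5 had a summed signal of lung and airway markers of 179.5, where treated arrays reached at most 4.814 and the median of the untreated arrays was 2.299. That sum rests on 3 markers, as 7 others were under the filter. The T cell genes Cd3e (3.28), Cd8a (4.37) and Cd4 (2.31) were also highest in untreated replicate 5. Whether they came from thymus was not tested. Treated replicate 7 lay at 2.41 from C57BL/6 over 200 strain marker probe sets, where the other B2KO arrays lay at 2.76 to 3.26. Cardiomyocyte markers were all above the array median in both groups, and their summed signal ran from 15150 to 30320 with a median of 16200 in treated hearts, against 12100 to 32950 with a median of 17000 in untreated hearts.

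Infused B2KO hearts had higher transcripts of the matrix genes Timp1, Tnc and Postn, of the lectins Lgals3 and Clec4n, of the chemokine Ccl8 and of a nicotinamide riboside kinase (Nmrk2). They had lower transcripts of the metabolic enzymes Acot1, Ces1d and Fbp2, of the iron hormone Hamp, of the calcium channel Cacna1g and of Retnla. In all, 54 of 21459 probe sets passed a limma adjusted p under 0.05 (0.252%), 14 of them higher (0.0652%) and 40 lower (0.186%) in treated B2KO hearts. They belong to 49 genes. Values are log2 of the deposited signal, where 0 is the median of an array, and a change is the treated mean minus the untreated mean with its standard error. The median change of the 14 was 1.50 and that of the 40 was -1.08, while the median over all probe sets was -0.06. Read by the brightest probe set of each gene, 36 of 11961 genes passed (0.301%), 13 higher (0.109%) and 23 lower (0.192%). At an unadjusted p under 0.05 there were 334 higher (2.79%) and 999 lower (8.35%) genes of the 11961. With quantile normalization there were 851 higher and 854 lower of 11918, so this excess of falls moved with the scaling.

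**Figure D1:**
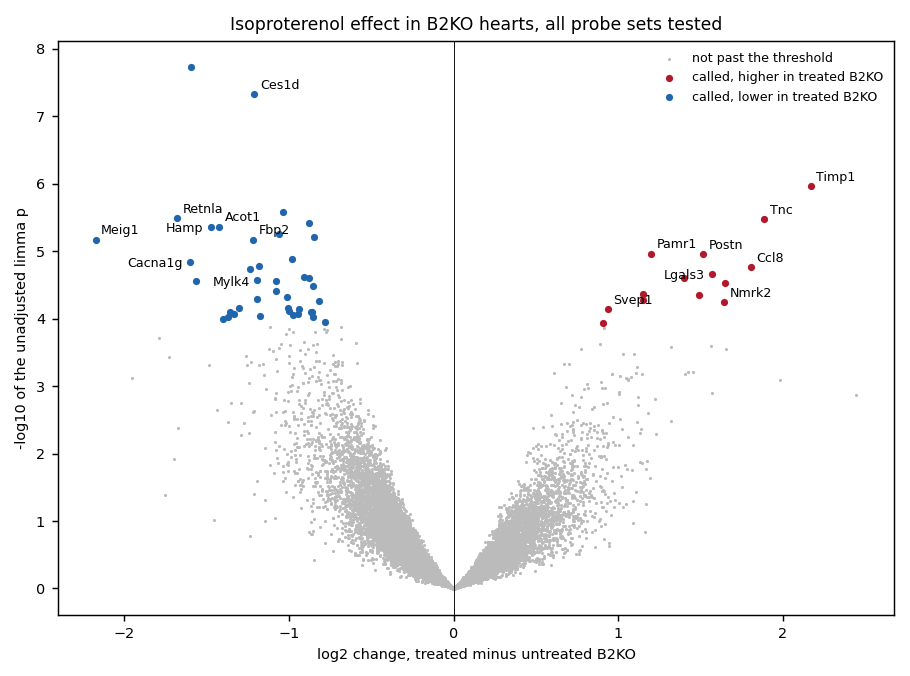
Each point is 1 probe set; the x axis is the log2 change in B2KO hearts (treated minus untreated) and the y axis is -log10 of the unadjusted limma p. The 14 probe sets past the threshold on the higher side (red) are led by Timp1 at 2.17, and the 40 on the lower side (blue) include 1 further probe set of Ces1d at -1.59, the topmost point.

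The number of calls rested on a few arrays and on the scaling. Without untreated replicates 1 and 8, an alternative chosen after seeing the data, 30 probe sets passed (7 higher, 23 lower), 22 of them among the 54. With array weights 1289 passed, 185 higher and 1104 lower. With quantile normalization 191 passed, 95 higher and 96 lower, and read by brightest probe set 133 of 11918 genes did (1.12%). Leaving out single arrays gave 18 calls without treated replicate 2 or 4, 30 without treated replicate 1 or 11, and 35 without treated replicate 8. It gave 34 without untreated replicate 9, 87 without untreated replicate 5, 97 without treated replicate 7 and 149 without treated replicate 5. A fit to the 19 B2KO arrays alone, with no spread borrowed from the other lines, called 1 probe set, that of Retnla. Among the 25 genes described singly below, 8 passed in every fit without 1 array: Timp1, Tnc, Ces1d, Fbp2, Acot1, Hamp, Retnla and Meig1. In heart RNA, more cells of a type and more RNA per cell cannot be told apart, and the same holds for fewer and less.

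Timp1, a secreted inhibitor of matrix metalloproteinases, had the largest rise of the genes named by size. Its signal was 0.75 at the lowest, 3.41 at the median and 4.90 at the highest in treated B2KO hearts, against -0.44, 0.96 and 1.67 in untreated hearts. It rose by 2.17 ± 0.41 (adjusted p = 0.00778), and 7 of 9 treated arrays lay above every untreated one. Tnc, the matricellular protein tenascin C of injured tissue, was at -1.24, 1.36 and 2.78 in treated hearts, against -2.32, -0.81 and 1.41 in untreated hearts. It rose by 1.89 ± 0.38 (adjusted p = 0.0104), with 4 treated arrays above all untreated ones. Postn, periostin of activated fibroblasts, was at 4.70, 7.61 and 8.67 in treated hearts, against 5.14, 5.96 and 6.52 in untreated hearts. It rose by 1.52 ± 0.32 (adjusted p = 0.016); 7 treated arrays lay above the untreated range and 1 below it. Pamr1, a secreted protein with a serine-peptidase-like domain, rose by 1.20 ± 0.26 (adjusted p = 0.016), and Svep1, a large extracellular adhesion protein, by 0.94 ± 0.22 (adjusted p = 0.0376). Each of these had 7 treated arrays above the untreated range, and Svep1 did not pass without untreated replicates 1 and 8.

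Further matrix genes had positive changes that missed the threshold. Among matricellular and other matrix proteins, 2 of 29 rose past the adjusted threshold (Tnc and Postn), and 13 were higher and 2 lower at an unadjusted p under 0.05. Their median change was 0.52, beside -0.08 over all genes. Without untreated replicates 1 and 8 the median was 0.25, with 10 higher and 2 lower, beside 2% higher and 7.4% lower of all genes in that fit. Cilp, a cartilage matrix protein also made by cardiac fibroblasts, was at 0.63, 3.36 and 5.41 in treated hearts, against 0.49, 1.46 and 3.64 in untreated hearts, a change of 1.40 ± 0.40 that missed the threshold (adjusted p = 0.107). Mfap5, a microfibril glycoprotein, had 7 of 9 treated arrays above the untreated range but a change of 1.12 ± 0.31 that also missed it (adjusted p = 0.0976). The matricellular Ccn5 stood at 1.14 ± 0.32 (adjusted p = 0.107) and the Wnt-binding Sfrp2 at 1.12 ± 0.34 (adjusted p = 0.16). With quantile normalization 8 of the 29 passed. In that fit limma gave adjusted p = 0.0484 for Cilp, 0.00546 for Mfap5 and 0.0374 for Ccn5, while Sfrp2 still missed the threshold (0.121).

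Of 18 fibrillar and network collagens none passed the adjusted threshold, 5 were higher and 0 lower at an unadjusted p under 0.05, and 17 had a positive change with a median of 0.38. The median was 0.36 without untreated replicates 1 and 8. The largest were Col8a1 at 0.85 ± 0.29, Col5a2 at 0.84 ± 0.27, Col1a1 at 0.77 ± 0.36 and Col3a1, the main fibrillar collagen of young scar, at 0.69 ± 0.24. Col3a1 was at 7.56, 9.30 and 9.86 in treated hearts, against 7.73, 8.33 and 8.90 in untreated hearts, so that 6 treated arrays lay above the untreated range and 1 below it. Col1a1 stood at 0.44 without untreated replicates 1 and 8. With quantile normalization 4 of the 18 collagens passed. Among 23 matrix enzymes and inhibitors Timp1 alone passed, with 9 higher and 1 lower at an unadjusted p under 0.05. The collagenolytic protease Ctsk stood at 0.96 ± 0.27 (adjusted p = 0.107). With quantile normalization 3 of the 23 passed, and Ctsk had a limma adjusted p of 0.019. Timp4, the inhibitor typical of healthy heart, stood at -1.43 ± 0.46 (adjusted p = 0.195), opposite in sign to Timp1. Of 14 fibroblast markers none passed, 7 were higher and 0 lower at an unadjusted p under 0.05, and 9 had a positive change with a median of 0.42. Without untreated replicates 1 and 8 there were 4 higher, and the median was 0.26. With quantile normalization 4 of the 14 passed. Their summed signal in all arrays was 2149 to 4654 with a median of 3062 in treated hearts, against 1862 to 3750 with a median of 2699 in untreated hearts. None of the 14 lay under the array median in both groups, and their part in the matrix result was not tested.

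**Figure D2:**
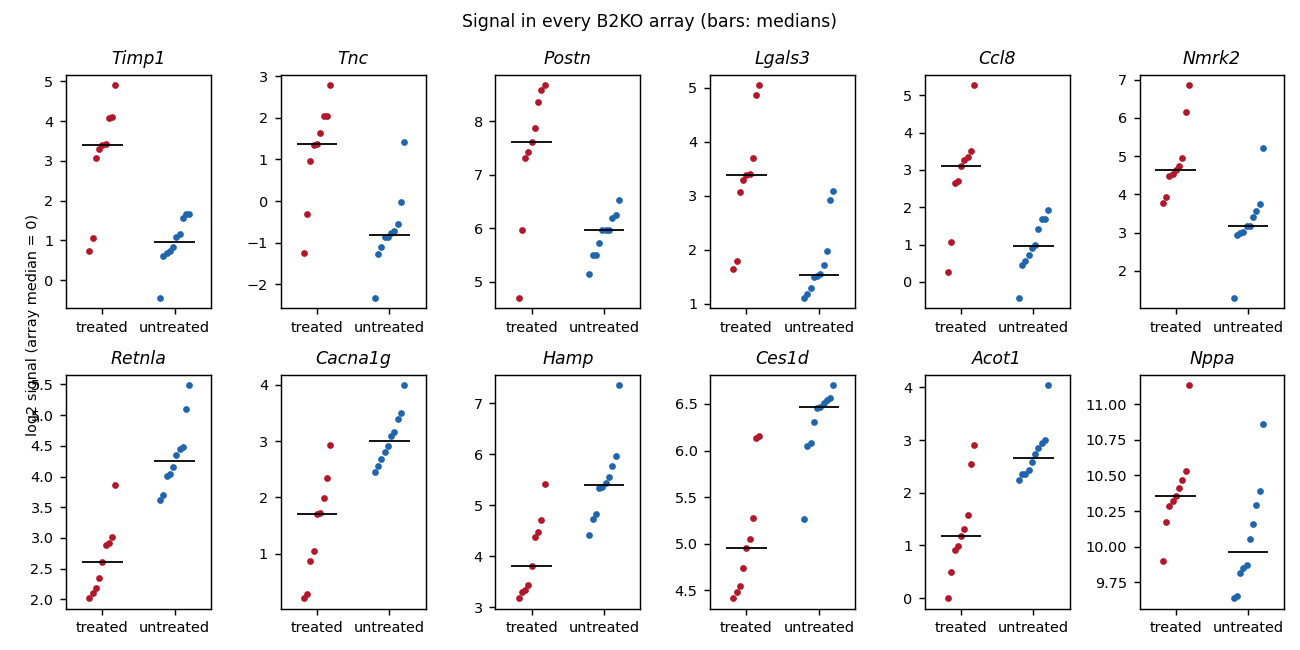
Log2 signal of 12 genes in each of the 9 treated (red, left) and 10 untreated (blue, right) B2KO arrays, where 0 is the array median and bars are group medians. For Timp1 and Ccl8 7 treated points lie above all untreated ones and the remaining 2 lie among them; Retnla and Cacna1g have 8 treated points below all untreated ones, and the groups overlap widely for Nppa.

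Genes of myeloid cells were also among the rises. Ccl8, a chemokine that draws monocytes, was at 0.27, 3.11 and 5.27 in treated hearts, against -0.43, 0.95 and 1.92 in untreated hearts. It rose by 1.81 ± 0.40 (adjusted p = 0.0194), with 7 treated arrays above all untreated ones, and its adjusted p was 0.0541 without untreated replicates 1 and 8. Lgals3, the lectin galectin-3 of activated macrophages, was at 1.63, 3.38 and 5.05 in treated hearts, against 1.11, 1.54 and 3.09 in untreated hearts, a rise of 1.57 ± 0.35 (adjusted p = 0.022). Clec4n, the fungal-pattern receptor dectin-2, was at -0.64, 0.90 and 2.53 in treated hearts, against -1.44, -0.45 and 0.13 in untreated hearts, and rose by 1.40 ± 0.31 (adjusted p = 0.022). In untreated hearts the median of Clec4n was below that of the array. For Lgals3, 6 treated arrays lay above the untreated range, and for Clec4n 5 did. Clec4n also missed the threshold without untreated replicates 1 and 8.

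Retnla, a secreted product of alternatively activated macrophages and of fat, went the other way. It was at 2.02, 2.61 and 3.87 in treated B2KO hearts, against 3.61, 4.25 and 5.48 in untreated hearts. It fell by 1.68 (SE 0.34, adjusted p = 0.0104), and 8 of 9 treated arrays lay below every untreated one. The list of C-type lectins and galectins, to which Retnla was assigned with Lgals3 and Clec4n although it is no lectin, had 2 of 11 genes up and 1 down past the threshold. Its median change of 0.83 became 0.27 without untreated replicates 1 and 8.

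Of 27 macrophage and monocyte genes none passed, 9 were higher and 0 lower at an unadjusted p under 0.05, and 24 had a positive change with a median of 0.33; without untreated replicates 1 and 8 there were 6 higher, and the median was 0.28. C1qc, a subunit of complement C1q made by tissue macrophages, stood at 0.78 ± 0.27 (adjusted p = 0.259), but at 0.49 without untreated replicate 8 and at 0.37 without untreated replicates 1 and 8. The Fc receptor Fcgr1 stood at 0.87 ± 0.31 (adjusted p = 0.28). With quantile normalization 2 of the 27 passed, and C1qc had a limma adjusted p of 0.0431. Over the 10 macrophage markers the summed signal was 110.8 to 494.7 with a median of 219.1 in treated hearts, against 161.7 to 293.8 with a median of 195.3 in untreated hearts. All 10 were above the array median in at least 1 group, and their part in the changes of Ccl8, Lgals3 and Clec4n was not tested. Chemokines and interleukins had only Ccl8 past the threshold among 23, with 2 higher and 2 lower at an unadjusted p under 0.05. That is 8.7% each way, beside 2.79% higher and 8.35% lower of all genes. Interferon response genes had 21 of 24 positive changes but only 1 higher at an unadjusted p under 0.05, and a median of 0.18 that was 0.11 without untreated replicates 1 and 8. For 15 genes of antigen presentation the median was 0.16, and it was -0.08 without those replicates.

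The remaining rises had other roles. Nmrk2, a muscle nicotinamide riboside kinase that makes NAD, was at 3.78, 4.64 and 6.86 in treated hearts, against 1.30, 3.18 and 5.22 in untreated hearts. It rose by 1.64 ± 0.39 (adjusted p = 0.0333), although only 2 treated arrays lay above the untreated range, and its adjusted p was 0.152 without untreated replicates 1 and 8. Apod, the lipid-binding apolipoprotein D, rose by 1.49 ± 0.35 (adjusted p = 0.0298). Its treated values of 3.56, 4.62 and 7.94 stood against untreated values of 2.42, 3.23 and 4.69, with 4 treated arrays above the untreated range. Lman1l, a lectin of the secretory pathway, rose by 1.15 ± 0.27 (adjusted p = 0.0298) and Cpm, a membrane carboxypeptidase, by 0.90 ± 0.22 (adjusted p = 0.0465). Neither Lman1l nor Cpm passed without untreated replicates 1 and 8. Sparcl1, a matricellular relative of SPARC chosen after its values were seen, was the only probe set whose groups did not overlap (0.00466% of those tested). It was at 7.96, 8.19 and 8.44 in treated hearts, against 6.25, 7.76 and 7.87 in untreated hearts, yet its change of 0.70 ± 0.19 missed the threshold (adjusted p = 0.0953).

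Among the falls were Ces1d, Acot1 and Fbp2, which encode enzymes of lipid and sugar metabolism. Ces1d, a carboxylesterase that hydrolyses stored lipid, had the smallest p of all genes: it was at 4.42, 4.96 and 6.15 in treated hearts, against 5.26, 6.46 and 6.70 in untreated hearts, and fell by 1.21 (SE 0.20, adjusted p = 0.000502). A further Ces1d probe set fell by 1.59 (SE 0.26, adjusted p = 0.000397), and the third stood at -1.73 ± 0.47 (adjusted p = 0.0877). Acot1, a cytosolic acyl-CoA thioesterase induced by PPAR-alpha, was at -0.00, 1.19 and 2.90 in treated hearts, against 2.24, 2.66 and 4.03 in untreated hearts. It fell by 1.43 (SE 0.29, adjusted p = 0.0104), with 7 treated arrays below all untreated ones; its near-identical relatives can share probes with it, and Acot2 stood at -0.80 ± 0.29 (adjusted p = 0.306). Fbp2, the muscle fructose-bisphosphatase, was at 1.46, 2.14 and 3.71 in treated hearts, against 2.59, 3.58 and 3.77 in untreated hearts. It fell by 1.22 (SE 0.25, adjusted p = 0.0112), also with 7 treated arrays below the untreated range, and was the only one of 24 genes of glucose transport and glycolysis to pass.

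Of 33 genes of fatty acid uptake and oxidation none passed by its brightest probe set, but 14 were lower and 1 higher at an unadjusted p under 0.05, 28 had a negative change, and the median was -0.28. Without untreated replicates 1 and 8 the list had 16 lower, 1 higher and a median of -0.42. With quantile normalization, which brought the median of all genes to 0.00, it was -0.22, with 3 genes past the threshold. The largest of them were Plin5, which ties lipid droplets to mitochondria, at -0.91 ± 0.24 (adjusted p = 0.0718), the enoyl-CoA isomerase Eci1 at -0.73 ± 0.20 (adjusted p = 0.0953) and the mitochondrial carnitine acyltransferase Cpt2 at -0.69 ± 0.18 (adjusted p = 0.0657). Plin5 was at 5.54, 6.09 and 7.02 in treated hearts, against 6.56, 6.88 and 8.22 in untreated hearts, and 7 treated arrays lay below the untreated range. Acaa2, the last thiolase of beta-oxidation, stood at -0.62 ± 0.19 (adjusted p = 0.166) by its brightest probe set. Another of its 3 probe sets, chosen after its values were seen, passed at -0.98 ± 0.21 (adjusted p = 0.0177), and the third stood at 0.40 ± 0.55.

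Energy metabolism further down had smaller values. Over all genes 60.6% had a negative change and 39.4% a positive one. Genes of the tricarboxylic acid cycle had a negative change in 20 of 23, a median of -0.20 and 4 lower at an unadjusted p under 0.05, and those of the respiratory chain a negative change in 35 of 38, a median of -0.19 and 4 lower, beside 8.35% lower of all genes. With quantile normalization these became 12 of 23 with a median of -0.05 and 24 of 38 with a median of -0.06. The balance of signs in both lists thus moved with the scaling. The complex I subunit Ndufv1 stood at -0.47 ± 0.19 (adjusted p = 0.383) and the fumarase Fh1 at -0.47 ± 0.21 (adjusted p = 0.417). Pdk4, which turns off pyruvate dehydrogenase, stood at -0.88 ± 0.32 (adjusted p = 0.306).

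Lipid droplet and adipose genes had the lowest median of the lists outside the cell type markers, -0.47 over 26 genes, with 24 negative changes and 6 lower at an unadjusted p under 0.05. It was -0.72 with 10 lower without untreated replicates 1 and 8, but -0.39 with 5 lower without untreated replicate 5. With quantile normalization it was -0.39 with 6 lower. The 2 genes of this list past the adjusted threshold were Retnla and Ces1d. Adipoq, the fat hormone adiponectin, was at -0.08, 1.38 and 3.10 in treated hearts, against 0.27, 3.81 and 5.22 in untreated hearts, a change of -1.70 ± 0.66 that missed the threshold (adjusted p = 0.347). Car3, a carbonic anhydrase of fat and muscle, stood at -1.67 ± 0.57 (adjusted p = 0.243). All 7 adipocyte markers tested had a negative change with a median of -0.85; their summed signal was 799.1 to 1775 with a median of 991.8 in treated hearts, against 987.7 to 1945 with a median of 1300 in untreated hearts, and none was under the array median in both groups. Without untreated replicate 5, 6 of the 7 were negative with a median of -0.60, and Adipoq stood at -1.47. Without untreated replicates 1 and 8 all 7 were negative with a median of -1.13. The part of fat attached to the hearts in these falls was not tested.

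**Figure D3:**
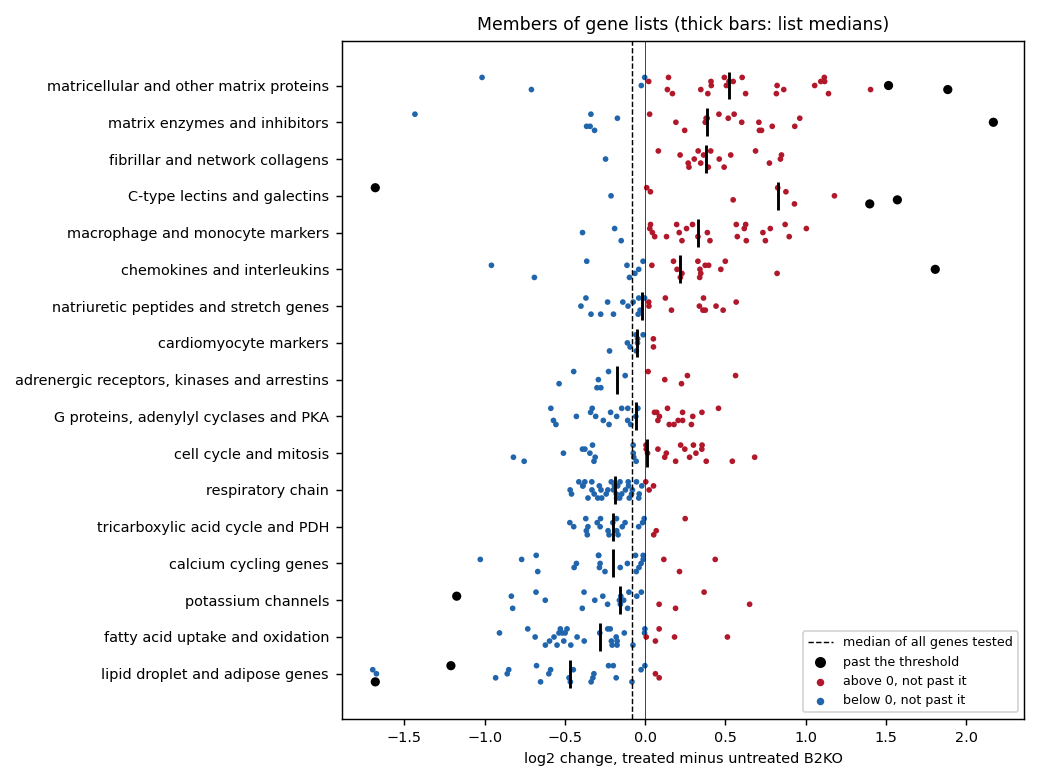
Each point is 1 gene, placed by its log2 change in B2KO hearts (treated minus untreated), in 17 lists; black points passed the limma adjusted threshold, red and blue points did not, thick bars are list medians and the dashed line is the median of all genes at -0.08. Matrix lists lie to the right with medians of 0.38 to 0.52, and fatty acid and adipose lists lie to the left at -0.28 and -0.47.

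Excitability genes gave 2 falls. Cacna1g, the T-type calcium channel of the sinus node and of young myocardium, was at 0.21, 1.70 and 2.94 in treated hearts, against 2.45, 3.00 and 3.99 in untreated hearts. It fell by 1.60 (SE 0.35, adjusted p = 0.0182), and 8 of 9 treated arrays lay below every untreated one. Kcna1, a delayed-rectifier potassium channel subunit, was at -0.64, 0.87 and 1.45 in treated hearts, against 0.71, 2.01 and 3.40 in untreated hearts, and fell by 1.17 (SE 0.29, adjusted p = 0.0395). Its ranges overlapped for 6 of the treated arrays, and it did not pass without untreated replicates 1 and 8. Of 22 potassium channels Kcna1 alone passed, with 6 lower and 1 higher at an unadjusted p under 0.05 and 18 negative changes. Kcnd2, a subunit of the transient outward current, stood at -0.68 ± 0.20 (adjusted p = 0.138), the acetylcholine-gated Kcnj3 at -0.83 ± 0.25 (adjusted p = 0.166), and the accessory subunit Kcne4 at 0.65 ± 0.20 (adjusted p = 0.175).

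None of 22 calcium cycling genes passed, 5 were lower and 0 higher at an unadjusted p under 0.05, and the median was -0.20 (-0.05 with quantile normalization). Casq1, the calcium buffer of the skeletal sarcoplasmic reticulum, stood at -1.03 ± 0.33 (adjusted p = 0.199), with 7 treated arrays below the untreated range and 1 above it. Trdn, the triadin of the calcium release complex, stood at -0.68 ± 0.23 (adjusted p = 0.233). Atp2a2, the calcium pump SERCA2, differed by -0.06 ± 0.19, with a 95% interval of -0.43 to 0.32.

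Hamp, the hormone hepcidin that blocks cellular iron export, was at 3.18, 3.80 and 5.42 in treated hearts, against 4.41, 5.40 and 7.35 in untreated hearts. It fell by 1.47 (SE 0.30, adjusted p = 0.0104), with 6 treated arrays below the untreated range, and its other probe set fell by 1.30 (SE 0.31, adjusted p = 0.0376). Hamp2, its near-identical copy, stood at -0.59 ± 0.39 (adjusted p = 0.632), and the signals of the 2 genes may share probes. Hjv, the co-receptor hemojuvelin upstream of hepcidin, stood at -0.71 ± 0.23 (adjusted p = 0.207). Of 27 antioxidant and iron genes Hamp alone passed. Angpt1, the ligand of the endothelial receptor Tie2, was at 2.59, 2.96 and 4.38 in treated hearts, against 3.77, 4.38 and 4.63 in untreated hearts. It fell by 1.00 (SE 0.24, adjusted p = 0.0376), with 7 treated arrays below the untreated range, but missed the threshold without untreated replicates 1 and 8.

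The largest fall by size was that of Meig1, a gene of spermiogenesis, which was at -1.74, -0.54 and 2.62 in treated hearts, against -0.26, 2.00 and 4.05 in untreated hearts. It fell by 2.17 (SE 0.45, adjusted p = 0.0112); 7 treated arrays lay below the untreated range, and the treated median was below that of the array. Mylk4, a myosin light chain kinase of striated muscle, fell by 1.20 (SE 0.27, adjusted p = 0.022) and Rtn1, a reticulon of the endoplasmic reticulum, by 1.08 (SE 0.24, adjusted p = 0.022). Each had 7 treated arrays below the untreated range, and neither passed without untreated replicates 1 and 8. Dut, which clears dUTP from the nucleotide pool, fell by 1.24 (SE 0.27, adjusted p = 0.0197), and the ubiquitin ligase Herc3 by 1.08 (SE 0.25, adjusted p = 0.0277). For these, 3 and 4 treated arrays lay below the untreated range. Dmpk, the myotonic dystrophy kinase, stood at -1.18 ± 0.33 (adjusted p = 0.0953). For the 25 genes, exact two-sided permutation of treatment over the 19 arrays gave unadjusted p-values from 4.33e-05 for Retnla to 0.00632 for Apod, where 1.08e-05 was the smallest possible. Since the same arrays chose the genes, these values are a description.

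Transcripts used as signs of hypertrophy did not pass in B2KO. Nppa, the atrial natriuretic peptide, was at 9.90, 10.36 and 11.13 in treated hearts, against 9.64, 9.97 and 10.86 in untreated hearts, a change of 0.34 ± 0.18 with a 95% interval of -0.02 to 0.69 (adjusted p = 0.533). Nppb, the B-type peptide, differed by 0.16 ± 0.33 (interval -0.49 to 0.82) and Myh7, the slow myosin heavy chain, by 0.25 ± 0.44 (interval -0.63 to 1.13). Myh6, the fast heavy chain of the mouse ventricle, stood at -0.09 ± 0.17 (interval -0.44 to 0.25) and the skeletal actin Acta1 at -0.38 ± 0.44 (interval -1.25 to 0.48). Myh7 stood at 0.66 and Acta1 at -0.76 without untreated replicates 1 and 8. The intervals leave room for changes of more than 1 log2 unit in Myh7 and Acta1, but not in Nppa, Nppb or Myh6. Over 24 natriuretic and stretch genes 1 was higher and 0 lower at an unadjusted p under 0.05, with a median of -0.02. With quantile normalization 4 were higher and 0 lower, 1 gene passed the adjusted threshold as higher, and the median was 0.12. In that fit Nppa stood at 0.42 (limma adjusted p = 0.0638). Of 32 sarcomere genes 0 were higher and 6 lower (18.8%) at an unadjusted p under 0.05, beside 2.79% higher and 8.35% lower of all genes. Their median of -0.14 became -0.02 with quantile normalization, with 2 higher and 6 lower. Dio2, the deiodinase that activates thyroid hormone, was at -0.96, 1.81 and 2.45 in treated hearts, against -0.86, 0.59 and 0.93 in untreated hearts. Its change of 1.01 ± 0.33 missed the threshold (adjusted p = 0.22), with 6 treated arrays above the untreated range and 1 below it.

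Genes of the receptor pathway that isoproterenol acts on did not pass the threshold at the end of the infusion. Of 12 measured adrenergic receptors, receptor kinases and arrestins none passed and 1 was higher at an unadjusted p under 0.05 (the anchoring protein Akap6, 0.56 ± 0.21, adjusted p = 0.307). Without untreated replicates 1 and 8 there were 0 higher and 1 lower, with Akap6 at 0.25 and Adra1b at -1.16. With quantile normalization Akap6 passed, at 0.70 (adjusted p = 0.0156). The alpha receptor Adra1b stood at -0.54 ± 0.43 (95% interval -1.39 to 0.32), the receptor kinase Grk3 at -0.30 ± 0.21 and the arrestin Arrb2 at -0.29 ± 0.26. None of 16 cyclic nucleotide phosphodiesterases passed, or was higher or lower at an unadjusted p under 0.05, and their median change was 0.03. Pde4d and Pde3a, which degrade cyclic AMP in cardiomyocytes, stood at 0.29 ± 0.21 and 0.40 ± 0.40. Of 31 G proteins, adenylyl cyclases and kinase A genes 2 were lower at an unadjusted p under 0.05 (6.45%). Among them was the inhibitory subunit Gnai1 (-0.59 ± 0.23, adjusted p = 0.36). Of 26 immediate early genes and targets of the cyclic AMP response factor 2 were lower (7.69%), the largest being Atf3 at -1.29 ± 0.45 (adjusted p = 0.27). Neither share exceeded the 8.35% lower of all genes. Fos stood at -0.19 ± 0.67 and Junb at 0.48 ± 0.45.

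As the pathway ends in cyclic AMP, the 250 bases before the transcription start were searched on both strands for the full response element TGACGTCA and its core TGACG, which also counts inside the full element. Sequences are those of RefSeq, build GRCm38.p6, and 27 of the 36 genes that passed had an entry. The full element was present in 0 of the 11 higher and 0 of the 16 lower genes, beside 1.55% of all 32851 promoters and 2.85% of the tested genes with an entry. The core was present in 1 higher and 2 lower genes, beside 17.8% of promoters and 30.1% of tested genes. The single core among the higher genes was in Timp1, the largest rise. Hamp is shown because its control by iron and bone morphogenetic proteins is known to run through the motif GGCGCC, which 9.59% of promoters, 19.4% of tested genes and 18.8% of the lower genes hold. The capitals mark TGACG in Timp1 (chrX:20869916-20870165, plus strand, 84 bases before the start) and GGCGCC in Hamp (chr7:30944030-30944279, minus strand, 109 bases before it).
Timp1: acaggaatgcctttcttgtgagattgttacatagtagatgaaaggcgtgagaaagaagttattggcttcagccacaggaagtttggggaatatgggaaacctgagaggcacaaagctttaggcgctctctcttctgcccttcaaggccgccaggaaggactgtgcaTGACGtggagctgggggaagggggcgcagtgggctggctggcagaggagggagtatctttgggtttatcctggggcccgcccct
Hamp: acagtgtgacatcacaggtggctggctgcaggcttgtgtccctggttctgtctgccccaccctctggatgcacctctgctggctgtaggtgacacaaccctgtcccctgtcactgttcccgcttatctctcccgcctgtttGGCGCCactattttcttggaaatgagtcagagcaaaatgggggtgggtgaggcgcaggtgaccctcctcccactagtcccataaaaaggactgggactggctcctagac
A match describes these letters only.

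Treated arrays differed among themselves. Of the 14 probe sets that passed as higher, treated replicates 1 to 4, 6, 8 and 11 were above the whole untreated range in 8 to 13, treated replicate 5 in 1 and treated replicate 7 in 0. Of the 40 that passed as lower, treated replicate 5 was below the untreated range in 1, and the others were in 23 to 38, replicate 7 in 25. By these counts treated replicate 7 went with the other treated arrays in the falls but not in the rises, and treated replicate 5 in neither. The probe sets were called from the same arrays, and such shares over all probe sets were not counted. Treated replicate 7 also had the lowest 75th percentile of linear signal among the treated arrays kept (4.93, with a treated median of 5.66 and an untreated median of 6.27). Whether its falls reflect the scale of the whole array was not tested. In Retnla and Cacna1g the array within the untreated range was replicate 5. Nothing in the labels sets treated replicates 5 and 7 apart, and both were kept in every value given unless named.

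**Figure D4:**
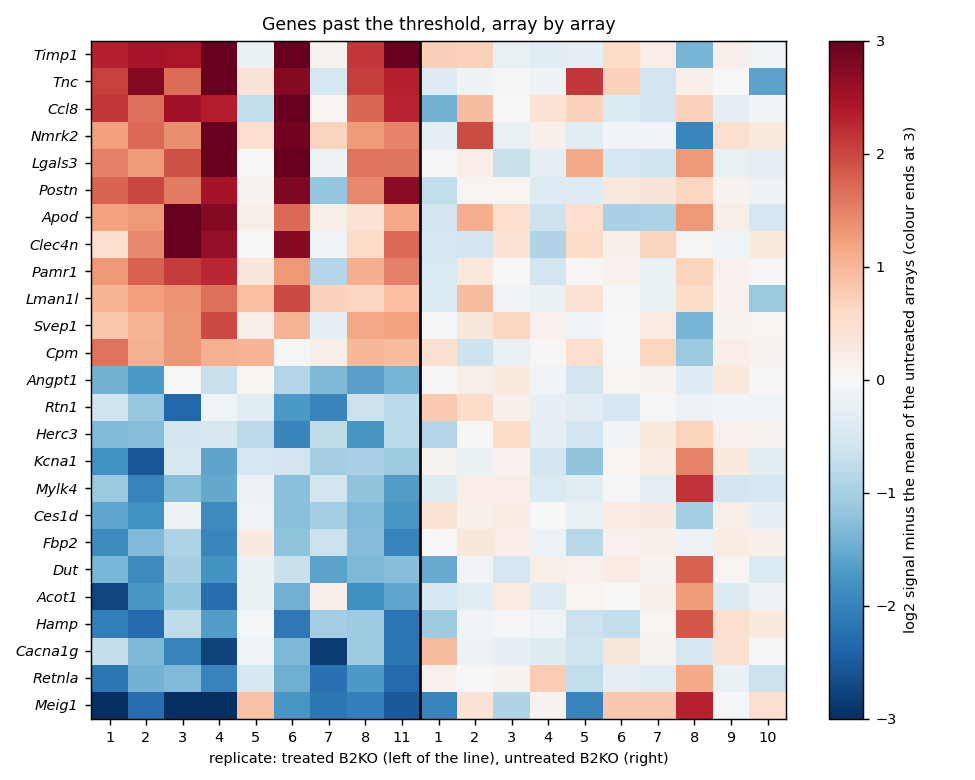
Log2 signal of the 25 genes minus the mean of the untreated B2KO arrays, for 9 treated arrays (left of the line) and 10 untreated arrays (right), with colours ending at 3. The rising genes (top 12 rows) are pale in treated replicates 5 and 7, the falling genes (lower 13 rows) are pale in treated replicate 5, and untreated replicate 8 departs from its group in several rows.

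Set beside the other lines, B2KO had the fewest calls in the fit without array weights. In that fit the infusion gave 484 calls in FVB (2.26%), 6168 in C57BL/6 (28.7%) and 1731 in B6129SF2/J (8.07%), each against its own untreated group. Of the 54 probe sets called in B2KO, 54 had the same sign in FVB, 48 in C57BL/6 and 53 in B6129SF2/J, while of all probe sets 49.9% were positive in FVB, 57.6% in C57BL/6 and 49.4% in B6129SF2/J. In the B2KO direction 25, 27 and 36 of the 54 passed in those lines. Over all probe sets 1.19% passed as higher and 1.07% as lower in FVB, 18.6% and 10.2% in C57BL/6, and 3.63% and 4.43% in B6129SF2/J. Of the 25 genes, 12 passed the same way in all 3 other lines, among them Timp1, Tnc, Postn, Lgals3, Clec4n, Acot1, Fbp2 and Hamp. Nmrk2, Rtn1 and Dut passed in none of them.

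The test of the difference between lines found no probe set for B2KO minus FVB with limma at an adjusted p under 0.05 (0% of 21459), and 879 at an unadjusted p under 0.05. Against B6129SF2/J 29 differed (0.135%), 13 higher (0.0606%) and 16 lower (0.0746%) in B2KO. Inhba, an activin subunit, stood at -0.32 in B2KO and 1.39 in B6129SF2/J, a difference of -1.71 ± 0.30 (adjusted p = 0.00432). Bdh1, which oxidises ketone bodies, stood at 0.15 in B2KO and 1.98 in B6129SF2/J, a difference of -1.83 ± 0.38 (adjusted p = 0.0248). Scn4b, a sodium channel beta subunit, stood at -0.33 in B2KO and -2.09 in B6129SF2/J, a difference of 1.76 ± 0.42 (adjusted p = 0.0488). The largest was the noncoding Plet1os, with 2.45 in B2KO and -2.73 in B6129SF2/J, a difference of 5.18 ± 1.01 (adjusted p = 0.0132). Plet1os was at 2.23, 5.06 and 6.41 in treated B2KO hearts, while 6 untreated B2KO arrays lay between 4.24 and 5.80 and 4 between -1.92 and -0.37. No gene among the 25 differed from FVB or B6129SF2/J. The count of 29 moved with most arrays left out: it was 57 without untreated replicate 1 and 13, 7, 18, 7, 10, 18 and 9 without untreated replicates 2 to 8 in that order. It was 6, 9, 5, 3 and 14 without treated replicates 1, 2, 5, 7 and 8. It moved less without untreated replicates 9 and 10 (25 and 20) and without treated replicates 3, 4, 6 and 11 (37, 21, 25 and 28).

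Against C57BL/6 1430 probe sets differed (6.66%), 363 higher (1.69%) and 1067 lower (4.97%) in B2KO, and 3269 differed without untreated replicate 8. The balance of directions turned with the scaling. With quantile normalization 932 were higher and 717 lower, and with arrays centred on the probe sets tested 825 were higher and 562 lower. Of the 25 genes 3 differed from C57BL/6 with the deposited scaling: Cacna1g, Rtn1 and Ces1d. Cacna1g stood at -1.60 in B2KO and 0.86 in C57BL/6, a difference of -2.46 ± 0.48 (adjusted p = 0.00132). Rtn1 stood at -1.08 in B2KO and 0.12 in C57BL/6, a difference of -1.19 ± 0.34 (adjusted p = 0.0211). Ces1d stood at -1.21 in B2KO and -0.30 in C57BL/6, a difference of -0.91 ± 0.28 (adjusted p = 0.0325). Among the 26 immediate early genes and cyclic AMP targets 10 differed from C57BL/6, including Fos (-0.19 in B2KO, 2.86 in C57BL/6, a difference of -3.05 ± 0.92, adjusted p = 0.0309). Junb stood at 0.48 in B2KO and 3.06 in C57BL/6, a difference of -2.58 ± 0.62 (adjusted p = 0.00789). Of 12 adrenergic genes 4 differed, including Adra1b (-0.54 in B2KO, 1.58 in C57BL/6, a difference of -2.12 ± 0.59, adjusted p = 0.0208) and Rgs2, a brake on G protein signals (-0.45 in B2KO, 0.56 in C57BL/6, a difference of -1.01 ± 0.33, adjusted p = 0.0484).

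**Figure D5:**
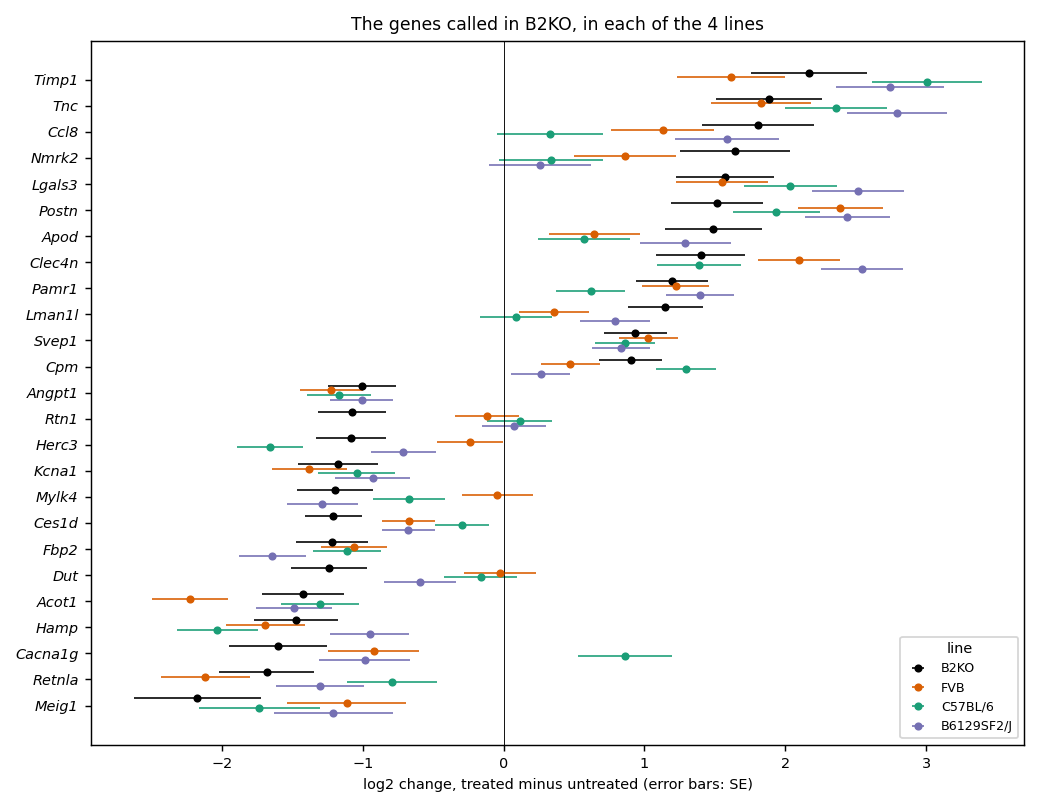
Log2 change under isoproterenol (treated minus untreated) with its SE for the 25 genes that passed in B2KO, in B2KO (black, topmost of each row) and in FVB, C57BL/6 and B6129SF2/J below it. Cacna1g is at -1.60 in B2KO and 0.86 in C57BL/6, and the 4 lines lie close together for Svep1, Angpt1 and Kcna1.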

How the data were processed

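RNA of whole hearts was hybridised to Affymetrix mouse genome arrays, 1 per sample. The authors deposited linear intensity values; the submitters' processing notes name GCRMA, and its version is not given in the sources used here. Each array had a median of 1. Log2 of the deposited values was used. Probe sets were named by the platform's annotation, with symbols updated from RefSeq (GRCm38.p6; 99.4% of 34945 matched). Probe sets were tested where the highest of 8 group means was above the array median: 21459, of 11981 genes. They were compared with limma 3.58.1 (R 4.3.3), plain empirical Bayes, in 1 fit of 8 groups and 84 arrays, with Benjamini-Hochberg adjustment over all of them, two-sided. Depth has no meaning here; the number of arrays limits precision. On simulated data, 2.99% of changes of 0.5, 50.7% of changes of 1 and 93.9% of changes of 2 log2 units were found. There 9 unchanged probe sets were called as well. The simulation drew independent normal noise with 1 spread per probe set, without outlying arrays or shifts of a whole array. The B2KO arrays departed from that setting, so the shares need not hold for them.

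The members, lists and rules were chosen with earlier results of these data known. Named by rule were up to 12 genes each way with the largest called change, a set of always reported genes, up to 5 members of each list and up to 5 differences between lines each way, each gene by its brightest probe set. Exact permutation tests covered 268 named genes, and no p adjusted over them is given, because the arrays chose them. Alternatives varied scaling, weights, filter, moderation, probe sets, arrays and the replicate block. Some genes are not reported here. No label ties an array to a numbered mouse, so p-values measure the spread between these samples.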

Additional observations from a re-analysis of the deposited data

Results flagged for a closer look

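Among the 76 genes named with values, an array far from the rest of its group (its gap to the next array, over the group's range, above Dixon's critical value) was found in 28 of 152 sets of arrays; chance alone gives about 1 in 20. Untreated replicate 8, the array with the 3' excess of Gapdh, accounts for 18 of the 20 sets of untreated arrays. It was lowest for Timp1 (-0.44, the next array at 0.60), Ctsk (-0.31), Svep1 (1.11), C1qc (1.42), Akap6 (3.69), Junb (-1.06) and Ces1d (5.26). It was highest for Col8a1 (5.47), Inhba (2.42), Gnai1 (5.29), Trdn (9.17), Kcnd2 (6.13), Acot2 (8.17), Kcnj3 (6.66), Dmpk (10.10), Mylk4 (8.88), Acot1 (4.03) and Hamp (7.35). The other untreated sets were Fbp2, lowest in replicate 5 (2.59), and Myh6, highest in replicate 2 (12.53).

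Among treated arrays, replicate 5 was highest for Meig1 (2.62, the next at 0.00) and Casq1 (6.53). Replicate 11 was highest for Myh6 (12.59) and Atp2a2 (11.51). Replicate 7 was lowest for Gnai1 (1.10), replicate 4 for Pde3a (-0.30), replicate 3 for Adra1b (-0.35) and replicate 2 for Plet1os (2.23). The cause of these values was not tested.

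Responses that differed between lines (limma adjusted p under 0.05 for the difference itself) were 18 of 228 examined, none of them against FVB. Some of these genes were named because such a difference had passed, so the count does not measure how often the lines differ. Over all probe sets 0% differed from FVB, 6.66% from C57BL/6 and 0.135% from B6129SF2/J. Against C57BL/6 the report gives Cacna1g (-2.46), Rtn1 (-1.19), Ces1d (-0.91), Fos (-3.05), Junb (-2.58), Adra1b (-2.12) and Rgs2 (-1.01). The others against C57BL/6 were Atf3 (-2.25), Dmpk (-2.05), Pdk4 (-1.71), Bdh1 (-1.69), Dio2 (-1.43), Hjv (-1.09) and Plet1os (3.16). Against B6129SF2/J they were Plet1os (5.18), Scn4b (1.76), Bdh1 (-1.83) and Inhba (-1.71). Dio2 stood at 1.01 in B2KO and 2.44 in C57BL/6.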

How the results depend on the processing

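No named gene turned its sign while past the threshold in either fit. Of its values under alternatives 9007 kept direction and side of the threshold, 178 lost a call, 143 gained one and 202 that were never called changed sign. Of the list medians 27 moved by more than the spread between arrays and 1879 by less. The count of 54 became 1289 with array weights, 191 with quantile normalization, 139 with arrays centred on the probe sets tested, 215 with treated replicate 10 kept, and 108 without 4 arrays (untreated 1 and 8, treated 7, and FVB treated 2). It was 1 in B2KO arrays alone, and, chosen after seeing the data, 30 without untreated replicates 1 and 8 and 5 without them in B2KO arrays alone. Leaving out 1 array gave 18 to 149. The 1430 differences from C57BL/6 became 4236 with weights, 783 with the filter at log2 2, 670 with 1 probe set per gene, 852 with probe sets averaged, 2416 with replicate 10 kept, 3123 without the 4 arrays and 3242 without untreated replicates 1 and 8, and 1068 to 3269 without 1 array. The 29 differences from B6129SF2/J became 1326 with weights, 79 with quantile normalization, 5 with no filter, 8 with 1 probe set per gene, 3 averaged and 3 to 57 without 1 array. The count against FVB was 0 in each. The causes were not tested. A pairing of the mice by replicate number was not detected: 2 of 8 same-numbered pairs correlated above 0.1 and 0 treated arrays correlated best with their own number. So few pairs, among them untreated replicates 1 and 8 with their 3' excess of Gapdh, cannot show that there was none. With the replicate block 54 probe sets passed, and 18 differences from B6129SF2/J.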

Other observations

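Of 30 cell cycle genes none passed the threshold in B2KO hearts, and the median was 0.01. At an unadjusted p under 0.05, 2 were lower (6.67%, beside 8.35% of all genes): Stmn1 (-0.82 ± 0.29) and Cenpa (-0.75 ± 0.21). Cenpa passed with quantile normalization (-0.65, adjusted p = 0.0223) and without untreated replicate 5 (-0.85, adjusted p = 0.0395). Of 14 endothelial markers none passed, 2 were higher at an unadjusted p under 0.05 and the median was 0.25, which became -0.05 without untreated replicates 1 and 8. The 2 erythroid markers tested, Alas2 and Slc4a1, stood at 0.98 ± 0.49 (adjusted p = 0.499) and 0.73 ± 0.42 (adjusted p = 0.564); Alas2 was at 0.42 without those replicates. None of 36 heat shock and stress genes was higher or lower at that level. Circadian genes had a median of -0.13 over 17 and TGF-beta ligands and receptors 0.02 over 24, where Ltbp2, which binds latent TGF-beta, stood at 1.00 ± 0.40 (adjusted p = 0.377). Ednrb, an endothelin receptor, stood at 0.77 ± 0.20 (adjusted p = 0.0761), with 6 treated arrays above the untreated range. Dct, a melanin enzyme, was at -2.10, 0.58 and 3.22 in treated hearts, against -2.92, -1.45 and 0.51 in untreated hearts (lowest, median and highest), a change of 1.57 ± 0.47 that missed the threshold (adjusted p = 0.147).

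Several further falls passed the threshold and are named after their values were seen. Ivd, which breaks down leucine, fell by 1.01 (SE 0.24, adjusted p = 0.0376) and by 0.85 (SE 0.18, adjusted p = 0.0112) at its 2 probe sets. Mmut, the methylmalonyl-CoA mutase, fell by 0.85 (SE 0.19, adjusted p = 0.0244) at 1 probe set, and its brightest stood at -0.90 ± 0.24 (adjusted p = 0.084). Klf9, a glucocorticoid-responsive factor, fell by 1.57 (SE 0.35, adjusted p = 0.022) at 1 of 6 probe sets, and the other 5 stood between -0.99 and -0.28. Dsg2, a desmoglein of the intercalated disc, fell by 0.91 (SE 0.20, adjusted p = 0.022) at 1 of 6 probe sets and stood at -0.73 ± 0.21 (adjusted p = 0.118) at the brightest. Slc36a2, an amino acid transporter, fell by 1.04 (SE 0.21, adjusted p = 0.0104).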
